A study of Mus musculus with 16 samples.

Results

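The MHC class II genes form the set described here, 10 of the 54347 genes in the deposited table, picked out by their symbols. They are the chains of the classical molecules (*H2-Aa*, *H2-Ab1* and *H2-Eb1*), the invariant chain *Cd74*, the chains of the peptide exchange factor H2-DM (*H2-DMa*, *H2-DMb1* and *H2-DMb2*), the chains of its inhibitor H2-DO (*H2-Oa* and *H2-Ob*), and *Ciita*, the coactivator of the pathway. All 10 were present in the table. Their RNA was measured by low-input RNA-seq in bone marrow cells of UREΔ mice, labelled URE, which carry a germline deletion of the upstream regulatory element, an enhancer of *Spi1* (the gene of the transcription factor PU.1), and of wild-type (WT) littermates. All mice were on the C57BL/6 background and 8 to 12 weeks old, and the sources used here name no other allele or agent. LSKs (Lin-Sca-1+c-Kit+, the compartment of stem cells and multipotent progenitors) and GMPs (Lin-Sca-1-c-Kit+Cd16/32+, granulocyte-monocyte progenitors) were sorted, with 4 mice per genotype and cell type and 16 libraries in all. The sources used here do not say whether the LSKs and GMPs of a replicate number came from the same mouse, and the deletion is present in every cell of the animal. The lineage antibodies used to remove mature cells (against T cell, B cell, erythroid and granulocyte antigens) included none specific for dendritic cells.

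MHC class II molecules are heterodimers of an alpha and a beta chain that carry peptides from endosomes to the cell surface, where CD4+ T cells read them. The invariant chain fills the groove of a new heterodimer and guides it to the endosome, H2-DM then removes the remnant of the invariant chain and selects stable peptides, and H2-DO holds H2-DM back. Transcription of the genes of these chains depends largely on a short promoter module of X and Y boxes, bound by the RFX complex and NF-Y. Ciita, which does not itself bind DNA, is recruited onto this module. In bone marrow the pathway is best known from B cells, dendritic cells and macrophages, while progenitors express it at lower levels.

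Of the 10 genes, 8 lie on chromosome 17 (GRCm38, GENCODE M21 annotation), in the class II region of the MHC. From the centromeric side these were *H2-Oa* (chr17:34092340-34095234, plus strand), *H2-DMa* (chr17:34119541-34139101, plus), *H2-DMb2* (chr17:34143307-34151555, plus), *H2-DMb1* (chr17:34153072-34160230, plus), *H2-Ob* (chr17:34238903-34254414, plus), *H2-Ab1* (chr17:34257689-34269419, plus), *H2-Aa* (chr17:34282744-34287823, minus) and *H2-Eb1* (chr17:34305867-34316674, plus). *Ciita* lies on chromosome 16 (chr16:10480059-10528418, plus), and *Cd74* also lies outside the MHC. *H2-DMb1* and *H2-DMb2* are close copies that share 517 stretches of 31 bases, 31.4% and 29.7% of those in each gene, so that the counting may have split reads between them. The libraries are unstranded, and 22.8% of the exonic length of *H2-Oa* overlaps *BC051537*, 10.4% of that of *H2-DMa* overlaps *Brd2* and 3.45% of that of *Ciita* overlaps *Dexi*.

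Promoter windows were available for 7 of the 10 genes (RefSeq, GRCm38.p6; *H2-Ab1*, *Cd74* and *Ciita* had none), and 6 of these held the core of the Y box, TGATTGG, within the 250 bases before the start. The same letters were found on either strand in 7.23% of the 32851 windows of all genes. The stretches around the Y core are shown because the Y box is part of the promoter module described above. The cores of the Y box and, where present, of the X1 box (AGCAAC) are in capitals. Each stretch is read 5′ to 3′ on the strand of its gene.
H2-Oa: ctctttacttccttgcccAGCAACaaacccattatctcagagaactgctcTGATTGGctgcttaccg
H2-Ob: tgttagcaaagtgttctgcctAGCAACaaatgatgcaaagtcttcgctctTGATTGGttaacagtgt
H2-Eb1: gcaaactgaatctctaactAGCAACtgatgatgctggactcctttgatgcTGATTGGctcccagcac
H2-Aa: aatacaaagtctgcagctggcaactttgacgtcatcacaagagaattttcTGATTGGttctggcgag
H2-DMb2: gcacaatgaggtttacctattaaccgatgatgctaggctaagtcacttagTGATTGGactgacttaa
H2-DMb1: ctgattcactcagTGATTGGtctgacctgc
The RefSeq starts of *H2-Oa*, *H2-DMb2*, *H2-DMb1* and *H2-Ob* lie inside the GENCODE gene models, and 11 of the bases shown for *H2-Oa* and all 30 for *H2-DMb1* fall in GENCODE exons. The stretches lie at chr17:34092284-34092350 (*H2-Oa*), chr17:34238796-34238862 (*H2-Ob*), chr17:34305756-34305822 (*H2-Eb1*), chr17:34287857-34287923 on the minus strand (*H2-Aa*), chr17:34145107-34145173 (*H2-DMb2*) and chr17:34153115-34153144 (*H2-DMb1*). *H2-Oa*, *H2-Ob* and *H2-Eb1* held both cores on 1 strand, with 26, 23 and 25 bases between them, an arrangement with a gap of 10 to 40 bases that occurred in 30 windows of all genes (0.0913%). The X1 core alone was in 12.2% of all windows. A core of PU.1 sites, AGGAAG, was in the windows of *H2-Oa* and *H2-DMb1* and in 29.5% of all windows, whereas the longer form GAGGAAGT (2.44% of all windows) and the composite PU.1-IRF motif GGAANNGAA (6.99%) were in none of the members' windows. All motifs were searched on both strands, and a match of letters is a description and not a measured site of binding.

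Total counts lay between 20028302 and 29128858 per library, and all 10 genes had enough counts for a test in every comparison. *Spi1*, whose enhancer is deleted, was at 69.5 to 165 CPM (counts scaled to the library size given by TMM) in WT LSKs and at 1.13 to 4.44 CPM in UREΔ LSKs. In GMPs it was at 139, 84.7, 181 and 153 CPM in WT and at 17.3, 28.6, 23.6 and 15.6 CPM in UREΔ mice, so that the genotypes were apart in both cell types as the labels state. Markers fixed for LSKs summed to 1475 to 3140 CPM in the LSK libraries and to 301 to 1327 CPM in the GMP libraries. Markers of GMPs summed to 2150 to 2870 CPM in LSKs, 55932 to 71649 CPM in WT GMPs and 74311 to 161005 CPM in UREΔ GMPs. Every UREΔ GMP library was thus above every WT GMP library, and the part of this difference in the results was not tested. Same-numbered libraries of different groups varied together, and replicates 1 and 4 varied together and against replicates 2 and 3. The sexes were not balanced between the genotypes. Y-linked transcripts were present in replicate 1 and absent from replicate 4 of every group, while replicates 2 and 3 had them in WT and lacked them in UREΔ mice. The comparisons are therefore also given within these splits. Nothing in the labels tells whether the differences between the mice of a group are biological or technical, so p-values measure the spread between these libraries.

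RNA of all 10 members was found in the sorted WT cells, with the invariant chain at the top and the coactivator at the bottom. Per kilobase of exon, *Cd74* led in WT LSKs with a mean of 142 CPM per kb, followed by *H2-DMa* (62.8), *H2-Ab1* (53.3), *H2-DMb1* (48.4), *H2-Ob* (22.2), *H2-Oa* (19.3), *H2-Aa* (12.3), *H2-Eb1* (12.3), *H2-DMb2* (6.47) and *Ciita* (0.801). Only 3 steps in this order separated neighbours whose 4 values did not overlap, namely from *Cd74* to *H2-DMa*, from *H2-DMb1* to *H2-Ob* and from *H2-DMb2* to *Ciita*. *Cd74* also led in WT GMPs with 76.3 CPM per kb, ahead of *H2-DMa* (54.0), *H2-DMb1* (48.7) and *H2-Ab1* (33.8), and the other members were at 7.57 or lower. Here the steps without overlap were from *Cd74* to *H2-DMa*, from *H2-Ab1* to *H2-Oa* and from *H2-DMb2* to *Ciita*. In UREΔ mice the order was another one, since *Cd74* was the third in LSKs (35.3 CPM per kb, after 59.7 for *H2-DMa* and 48.9 for *H2-DMb1*) and the fifth in GMPs (3.54 CPM per kb). In UREΔ GMPs *H2-DMb1* (34.7) and *H2-DMa* (23.4) led, followed by *H2-Ab1* (8.60) and *H2-Oa* (8.40), and *Ciita* was again the lowest at 0.104 CPM per kb. The only step without overlap in UREΔ LSKs was from *H2-DMb2* to *Ciita*, and in UREΔ GMPs there were steps from *H2-DMa* to *H2-Ab1* and from *H2-Aa* to *Ciita*. The plot of levels by library shows these values for every member.

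**Figure D1:**
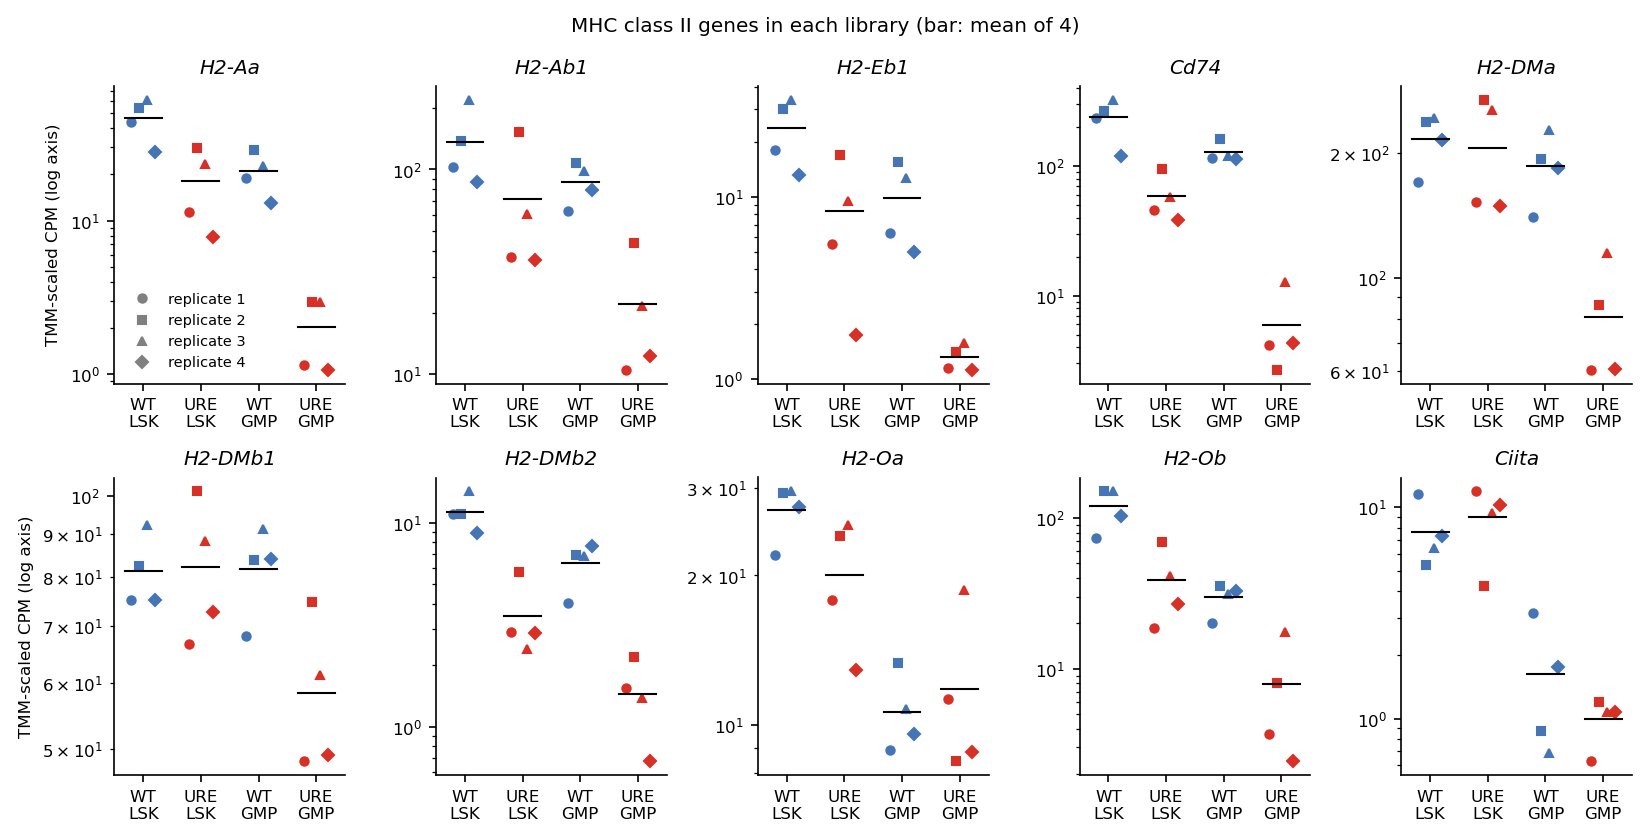
Level of each of the 10 MHC class II genes in the 16 libraries, as TMM-scaled CPM on a log axis, by genotype and sorted cell type. Each symbol is 1 mouse (its shape gives the replicate number) and each bar the mean of 4. *Cd74* spans the widest range, from 2.66 CPM in a UREΔ GMP library to 328 CPM in a WT LSK library, whereas *H2-DMb1* stays between 48.4 and 101 CPM.

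To ask which class II genes differ between the genotypes in the stem cell compartment, UREΔ LSKs were compared with WT LSKs. *Cd74*, *H2-Ob* and *H2-DMb2* fell, by 4.12-fold, 3.15-fold and 3.32-fold. These 3 of 10 members were called lower (adjusted p below 0.05 with more than a 1.5-fold change). Of the 15154 genes tested, 3.76% received this call. No member was called higher, where 2.38% of genes were. The median log2 fold change of the 10 members was -1.19, against 0.00093 for all genes tested. The same 3 members had every UREΔ value below every WT value, as had 6.9% of all genes tested. As the samples are bulk RNA, fewer cells that carry a transcript and less of it per cell cannot be told apart.

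*Cd74* (GRCm38 chr18:60803848-60812652, plus strand) was at 235, 269, 328 and 121 CPM in replicates 1 to 4 of WT LSKs and at 45.5, 95.2, 58.2 and 38.2 CPM in UREΔ LSKs. The lowest WT library, replicate 4, was still above the highest UREΔ library, replicate 2. The log2 fold change was -2.04 (SE 0.37, edgeR adjusted p = 0.0109). *H2-Ob*, the beta chain of H2-DO, was at 73.7, 151, 151 and 103 CPM in WT and at 18.7, 68.8, 41.0 and 26.8 CPM in UREΔ LSKs, so that the groups came close at WT replicate 1 and UREΔ replicate 2 without overlapping (log2 fold change -1.65, SE 0.41, edgeR adjusted p = 0.0444). Its partner *H2-Oa* had WT values from 22.0 to 29.6 CPM and UREΔ values from 12.9 to 25.3 CPM, which overlapped (log2 fold change -0.47, SE 0.25, edgeR adjusted p = 0.462).

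Of the chains of H2-DM only *H2-DMb2* was called in LSKs, and differences between the chains were not tested. *H2-DMb2* and *H2-DMb1* share sequence, so their separate values depend on how the reads were assigned. With the counts of both copies summed, H2-DMb was not called. *H2-DMb2* was at 11.01, 10.96, 14.3 and 8.94 CPM in WT LSKs and at 2.92, 5.70, 2.40 and 2.88 CPM in UREΔ LSKs, with a log2 fold change of -1.73 (SE 0.34, edgeR adjusted p = 0.0161). Its highest UREΔ value was 5.70 CPM and its lowest WT value 8.94 CPM. *H2-DMb1*, the more abundant copy, was at 81.3 ± 8.04 CPM (SD, n = 4) in WT and 82.2 ± 15.6 CPM in UREΔ LSKs, and the alpha chain *H2-DMa* at 216 ± 32.9 and 206 ± 63.8 CPM. Their log2 fold changes were -0.02 (SE 0.18) and -0.10 (SE 0.24), within the spread between replicates, with edgeR adjusted p values of 0.990 and 0.951.

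The classical chains were lower in UREΔ LSKs on average but were not called by edgeR without a block. *H2-Aa* was at 43.4, 54.4, 61.3 and 28.1 CPM in WT and at 11.4, 29.5, 23.4 and 7.85 CPM in UREΔ LSKs, with overlap only between WT replicate 4 and UREΔ replicate 2 (log2 fold change -1.41, SE 0.43, edgeR adjusted p = 0.108), and DESeq2 called it (-1.38, adjusted p = 0.0282). *H2-Eb1*, a beta chain whose partner *H2-Ea* is not expressed in C57BL/6 mice and had 0 counts in all 16 libraries, was at 18.1, 30.2, 34.0 and 13.2 CPM in WT and at 5.49, 16.8, 9.51 and 1.75 CPM in UREΔ LSKs (log2 fold change -1.54, SE 0.60, edgeR adjusted p = 0.234). *H2-Ab1* was at 103, 138, 220 and 87.2 CPM in WT and at 37.3, 153, 60.9 and 36.3 CPM in UREΔ LSKs, where the value of replicate 2 exceeded those of WT replicates 1, 2 and 4 (log2 fold change -0.97, SE 0.50, edgeR adjusted p = 0.428). Replicate 2 was the highest UREΔ LSK library for 8 of the 10 members. *Ciita* was at 11.53, 5.33, 6.40 and 7.29 CPM in WT and at 11.96, 4.24, 9.43 and 10.3 CPM in UREΔ LSKs, from 128 to 360 counts per library, with groups that overlapped over most of their range (log2 fold change 0.20, SE 0.37, edgeR adjusted p = 0.935).

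With the replicate number as a block, *H2-Aa* (log2 fold change -1.54, adjusted p = 0.00376) and *H2-Eb1* (-1.82, adjusted p = 0.0101) were called as well, which made 5 members lower in LSKs, where 5.62% of all genes were called lower with the block. Within replicates 1 and 4, in which both genotypes have 1 library with and 1 without Y-linked transcripts, 5 members were called lower (*H2-Aa*, *H2-Ab1*, *H2-DMb2*, *H2-Ob* and *Cd74*), against 4.13% of all genes. Within replicates 2 and 3, in which sex differs between the genotypes, 2 were called, *Cd74* (log2 fold change -1.99, adjusted p = 0.00746) and *H2-Ob* (-1.49, adjusted p = 0.0364), against 1.46% of all genes. *H2-DMb2* lost its call (-1.67, adjusted p = 0.205), *H2-Aa* was at -1.16 (adjusted p = 0.1045) and *H2-DMa* turned sign (0.0895). When the Y-linked level was added to the model, no member was called by edgeR, where 2.11% of all genes were called lower. At an unadjusted p under 0.05 there were 3 members, and the share of all genes at that threshold is not given here. *Cd74* had a log2 fold change of -1.70 (edgeR adjusted p = 0.127), *H2-DMb2* of -1.65 (0.100) and *H2-Ob* of -1.88 (0.140). Without UREΔ replicate 1 or without UREΔ replicate 4 the call of *H2-DMb2* was lost (adjusted p = 0.0533 and 0.0560), and that of *H2-Ob* was lost without any 1 of UREΔ replicates 1, 3 and 4 or WT replicates 2, 3 and 4 (adjusted p between 0.0837 and 0.134), with upper quartile factors (0.0557) and in the joint fit of all libraries (0.0799). *H2-Ab1* was called without UREΔ replicate 2 (log2 fold change -1.63, adjusted p = 0.0465).

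**Figure D2:**
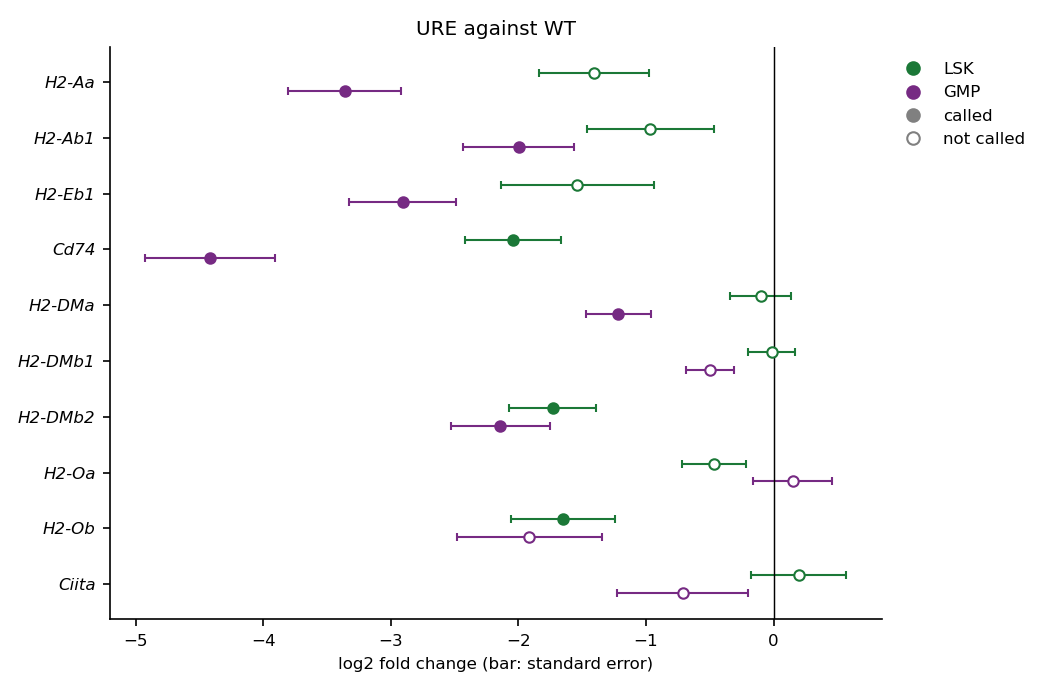
Log2 fold change of each member between UREΔ and WT mice in LSKs and in GMPs, with its standard error as a bar, from 4 libraries per group. Filled points were called (adjusted p below 0.05 with more than a 1.5-fold change): 3 in LSKs and 6 in GMPs, all of them below 0.

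The same comparison was made in GMPs, the committed myeloid progenitors. *Cd74* fell by 21.4-fold, *H2-Aa* by 10.3-fold, *H2-Eb1* by 7.51-fold, *H2-DMb2* by 4.41-fold, *H2-Ab1* by 3.996-fold and *H2-DMa* by 2.33-fold in UREΔ GMPs. No member was called higher. Thus 6 of 10 members were called lower, against 3.63% of the 13829 genes tested, of which 4.67% were called higher. The median log2 fold change of the members was -1.96, against 0.0052 for all genes tested. These 6 members and *H2-Ob* had every UREΔ value below every WT value, 7 of 10 members where 6.98% of all genes did.

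*Cd74* was at 116, 163, 119 and 115 CPM in WT GMPs and at 4.14, 2.66, 12.7 and 4.27 CPM in UREΔ GMPs, a log2 fold change of -4.42 (SE 0.51, edgeR adjusted p = 0.00117). Replicate 3 lay above the other UREΔ libraries and was still far below the lowest WT library. Without UREΔ GMP replicate 3 the log2 fold change of *Cd74* was -5.15. *H2-Aa* was at 19.0, 28.97, 22.5 and 13.1 CPM in WT and at 1.16, 2.97, 2.97 and 1.07 CPM in UREΔ GMPs (log2 fold change -3.36, SE 0.44, edgeR adjusted p = 0.00207). *H2-Eb1* was at 6.32, 15.5, 12.7 and 4.98 CPM in WT and at 1.16, 1.41, 1.59 and 1.12 CPM in UREΔ GMPs, where it rested on 20 to 31 counts per library (log2 fold change -2.91, SE 0.42, edgeR adjusted p = 0.00341). Both chains were thus at most 2.97 CPM in all 4 UREΔ mice. *H2-Ab1* was at 62.9, 108, 98.1 and 79.0 CPM in WT and at 10.5, 43.8, 21.7 and 12.3 CPM in UREΔ GMPs (log2 fold change -1.999, SE 0.44, edgeR adjusted p = 0.0215). It had the smallest fold change of the classical chains, and its UREΔ replicate 2 lay above the others.

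Within H2-DM, the alpha chain and the minor beta chain fell. *H2-DMa* was at 141, 193, 227 and 184 CPM in WT and at 60.2, 86.5, 115 and 60.7 CPM in UREΔ GMPs (log2 fold change -1.22, SE 0.26, edgeR adjusted p = 0.0184), and the UREΔ values all lay below the WT values. *H2-DMb2* was at 4.02, 6.93, 6.84 and 7.67 CPM in WT and at 1.54, 2.19, 1.38 and 0.675 CPM in UREΔ GMPs (log2 fold change -2.14, SE 0.39, edgeR adjusted p = 0.00937). *H2-DMb1* was at 81.8 ± 9.83 CPM (SD, n = 4) in WT and 58.4 ± 12.4 CPM in UREΔ GMPs, with overlapping values (log2 fold change -0.50, SE 0.19, edgeR adjusted p = 0.163).

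Neither chain of H2-DO was called in GMPs by edgeR without a block. *H2-Ob* was at 20.03, 35.4, 31.4 and 32.9 CPM in WT and at 3.66, 8.09, 17.5 and 2.42 CPM in UREΔ GMPs, without overlap but with a wide spread among the UREΔ mice (log2 fold change -1.91, SE 0.57, edgeR adjusted p = 0.0757). It was called with the replicate block (-2.26, adjusted p = 0.00805), which made 7 members where 6.82% of all genes were called lower. It was also called by DESeq2 (adjusted p = 0.00728), without a filter on low counts (0.0392) and in the joint fit of all libraries (0.0294). *H2-Oa* was at 10.7 ± 1.94 CPM (SD, n = 4) in WT and 11.8 ± 4.75 CPM in UREΔ GMPs (log2 fold change 0.15, SE 0.31, edgeR adjusted p = 0.857), and its overlap with *BC051537* limits what can be said of it. *Ciita* was at 3.16, 0.872, 0.684 and 1.76 CPM in WT and at 0.626, 1.20, 1.08 and 1.07 CPM in UREΔ GMPs, from 13 to 73 counts per library, with groups that overlapped and a wide spread among the WT mice (log2 fold change -0.71, SE 0.52, edgeR adjusted p = 0.518).

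Within replicates 2 and 3 only *H2-Aa* and *H2-Eb1* were called in GMPs, where 0.366% of all genes were called lower. The other 4 lost their calls, *Cd74* at a log2 fold change of -4.19 (adjusted p = 0.0734), *H2-DMb2* at -1.97 (0.179), *H2-Ab1* at -1.69 (0.111) and *H2-DMa* at -1.08 (0.145). Within replicates 1 and 4, 7 members were called, the 6 and *H2-Ob*, against 4% of all genes. When the Y-linked level was added to the model, 4 members were called (*H2-Aa*, *H2-Eb1*, *H2-DMb2* and *Cd74*), against 2.16% of all genes, while *H2-Ab1* (log2 fold change -2.29, adjusted p = 0.0638) and *H2-DMa* (-1.33, adjusted p = 0.0613) were not. With 1 library left out, the calls of *H2-Ab1* and *H2-DMa* were lost with adjusted p between 0.0513 and 0.0650, *H2-Ab1* without any 1 of UREΔ replicates 3 and 4 and WT replicates 2 and 3, and *H2-DMa* without any 1 of UREΔ replicates 1 and 4 and WT replicate 2, while *H2-Ob* was called without UREΔ replicate 3 (log2 fold change -2.69, adjusted p = 0.00944).

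Whether the effect of the genotype differed between GMPs and LSKs was tested with an interaction term in 1 model of the 16 libraries. No member was called by edgeR, a call that 1.22% of the 15935 genes tested received in either direction, and 9 of 10 interaction terms were negative, with a median of -0.99 against 0.0024 for all genes. At an unadjusted p under 0.05 there were 3 members, and DESeq2 called 2 (*H2-Aa* and *Cd74*). The shares of all genes at that p and by DESeq2 are not given here, so these counts cannot be set against them. *Cd74* had the largest term, -2.42 on the log2 scale (SE 0.60, edgeR adjusted p = 0.0648), followed among the 3 by *H2-Aa* with -1.98 (SE 0.62, adjusted p = 0.159) and by *H2-DMa* with -1.14 (SE 0.35, adjusted p = 0.149). With the replicate number as a block these 3 members were called, where 6.57% of all genes were, with adjusted p values of 0.00816 for *Cd74*, 0.00157 for *H2-Aa* and 0.0031 for *H2-DMa*. Without UREΔ GMP replicate 3, the library with the highest *Cd74* of its group, *Cd74* was called (-3.12, adjusted p = 0.00582). *Spi1* itself had an interaction term of 2.64 (edgeR adjusted p = 0.0219), as it fell less in GMPs (log2 fold change -2.73) than in LSKs (-5.39), the opposite sign to *Cd74*.

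GMPs were compared with LSKs in each genotype to see how the members change between the compartments. In WT mice, *Ciita* fell by 4.74-fold, *H2-Ob* by 4.03-fold, *H2-Oa* by 2.56-fold, *H2-Aa* by 2.26-fold, *Cd74* by 1.87-fold and *H2-DMb2* by 1.79-fold from LSKs to GMPs. These 6 of 10 members were called lower, as were 15.8% of the 14767 genes tested, and the median of the members was -1.04 against -0.086 for all genes. *Ciita*, *H2-Ob*, *H2-Oa* and *H2-DMb2* were without overlap between the compartments, 4 of 10 members where 17.6% of all genes had every GMP value lower. In this fit both chains of H2-DO fell, *H2-Ob* from 120 ± 37.9 CPM (SD, n = 4) in LSKs to 29.9 ± 6.80 CPM in GMPs (log2 fold change -2.01, SE 0.28, edgeR adjusted p = 0.00108) and *H2-Oa* from 27.1 ± 3.53 to 10.7 ± 1.94 CPM (-1.36, SE 0.21, adjusted p = 0.00152). *H2-Eb1* was close to *H2-Oa* (-1.28, SE 0.44) and beyond it within replicates 1 and 4 (-1.47 against -1.42). Differences between members were not tested. *Ciita* went from 7.64 ± 2.71 CPM in LSKs to 1.62 ± 1.13 CPM in GMPs (-2.24, SE 0.51, edgeR adjusted p = 0.00991). *H2-DMb1* was level between the compartments in WT, with a log2 fold change of -0.0017 (SE 0.16, edgeR adjusted p = 0.996), and *H2-DMa* differed by less than the spread between replicates (-0.23, SE 0.19, adjusted p = 0.410).

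In WT mice the calls of *H2-Aa* (log2 fold change -1.17, SE 0.31, edgeR adjusted p = 0.0202), *Cd74* (-0.91, SE 0.29, adjusted p = 0.0413) and *H2-DMb2* (-0.84, SE 0.27, adjusted p = 0.0432) were less firm than those of *Ciita*, *H2-Oa* and *H2-Ob*. The call of *H2-DMb2* was lost whichever library was left out (adjusted p between 0.0524 and 0.101), that of *Cd74* without any 1 library other than WT LSK replicate 4 (adjusted p between 0.0633 and 0.104), and that of *H2-Aa* without WT GMP replicate 1, WT GMP replicate 4 or WT LSK replicate 2 (adjusted p = 0.0590, 0.0513 and 0.0548). The call of *Cd74* was also lost with DESeq2 (adjusted p = 0.0552), RLE factors (0.0627) and the joint fit of all libraries (0.128). That of *H2-DMb2* was lost with RLE factors (0.0651), upper quartile factors (0.0501), no filter on low counts (0.0905) and the joint fit (0.0904), and that of *H2-Aa* with the joint fit (0.0568). DESeq2 called *H2-Eb1* (-1.20, adjusted p = 0.0386). With the replicate block, *H2-Ab1* (-0.60, adjusted p = 0.0118) and *H2-Eb1* (-1.33, adjusted p = 0.000119) were called as well, 8 members where 25.1% of all genes were called lower, and *H2-Eb1* was also called without WT LSK replicate 4 (-1.48, adjusted p = 0.0428). Within replicates 1 and 4, *H2-Aa* (-1.16, adjusted p = 0.0535), *Cd74* (-0.62, adjusted p = 0.210) and *H2-DMb2* (-0.77, adjusted p = 0.201) were not called, and within replicates 2 and 3 *H2-DMb2* was not (-0.81, adjusted p = 0.167). *H2-Eb1* was called within both sets (adjusted p = 0.0247 and 0.0459) and with the Y-linked level in the model (0.0196), in which *H2-DMb2* was not (0.0616).

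In UREΔ mice, *Cd74* fell by 10.1-fold from LSKs to GMPs, *Ciita* by 9.32-fold, *H2-Aa* by 9.01-fold, *H2-Eb1* by 6.46-fold, *H2-Ob* by 4.97-fold and *H2-DMa* by 2.62-fold. These 6 of 10 members were called lower, against 12.6% of the 14395 genes tested, and the median of the members was -2.03 against -0.093 for all genes. Together with *H2-DMb2* they made 7 members without overlap, where 14.3% of all genes had every GMP value lower. For *Cd74* the step was from 59.3 ± 25.3 CPM (SD, n = 4) to 5.94 ± 4.56 CPM (log2 fold change -3.34, SE 0.53, edgeR adjusted p = 0.00233), for *H2-Aa* from 18.0 ± 10.1 to 2.04 ± 1.07 CPM (-3.17, SE 0.55, adjusted p = 0.00336) and for *H2-Eb1* from 8.39 ± 6.43 to 1.32 ± 0.219 CPM (-2.69, SE 0.61, adjusted p = 0.0120). *Ciita* went from 8.98 ± 3.33 CPM in UREΔ LSKs, close to the WT mean, to 0.993 ± 0.252 CPM in UREΔ GMPs (-3.22, SE 0.42, edgeR adjusted p = 0.000901). The 2 comparisons between compartments share no library with each other, but each shares its libraries with the comparisons between genotypes, and their difference is the interaction given above. *H2-Ob* (-2.31, SE 0.64, edgeR adjusted p = 0.0294) lost its call without any 1 of UREΔ GMP replicates 1, 2 and 4 and UREΔ LSK replicates 2 and 3 (adjusted p between 0.0583 and 0.0747), *H2-Ab1* (-1.74, SE 0.58, adjusted p = 0.0589) was called without UREΔ GMP replicate 2 (-2.28, adjusted p = 0.0286) and *H2-Oa* without UREΔ GMP replicate 3 (-1.11, adjusted p = 0.0317). With the replicate block 9 members were called, where 18.6% of all genes were called lower, with *H2-Ab1* at -1.71 (adjusted p = 8.5e-05), *H2-DMb2* at -1.31 (adjusted p = 0.0255) and *H2-Oa* at -0.83 (adjusted p = 0.0215) added. *H2-Eb1* was not called within replicates 1 and 4 (-1.65, adjusted p = 0.0856) nor *Ciita* within replicates 2 and 3 (-2.56, adjusted p = 0.0805), while *H2-Ab1* was called within replicates 1 and 4 (adjusted p = 0.00228) and with the Y-linked level in the model (0.0431). *H2-Ab1* was also called by DESeq2 (0.0199), without a filter on low counts (0.0392) and in the joint fit (0.0213). *H2-DMb2* was called by DESeq2 (0.0364) and in the joint fit (0.0178). Fold changes also moved when 1 library was left out. Without UREΔ GMP replicate 3 the log2 fold change was -4.03 for *Cd74* and -3.07 for *H2-Ob*. Without UREΔ LSK replicate 2 it was -1.03 for *H2-Ab1* and -2.09 for *H2-Eb1*.

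**Figure D3:**
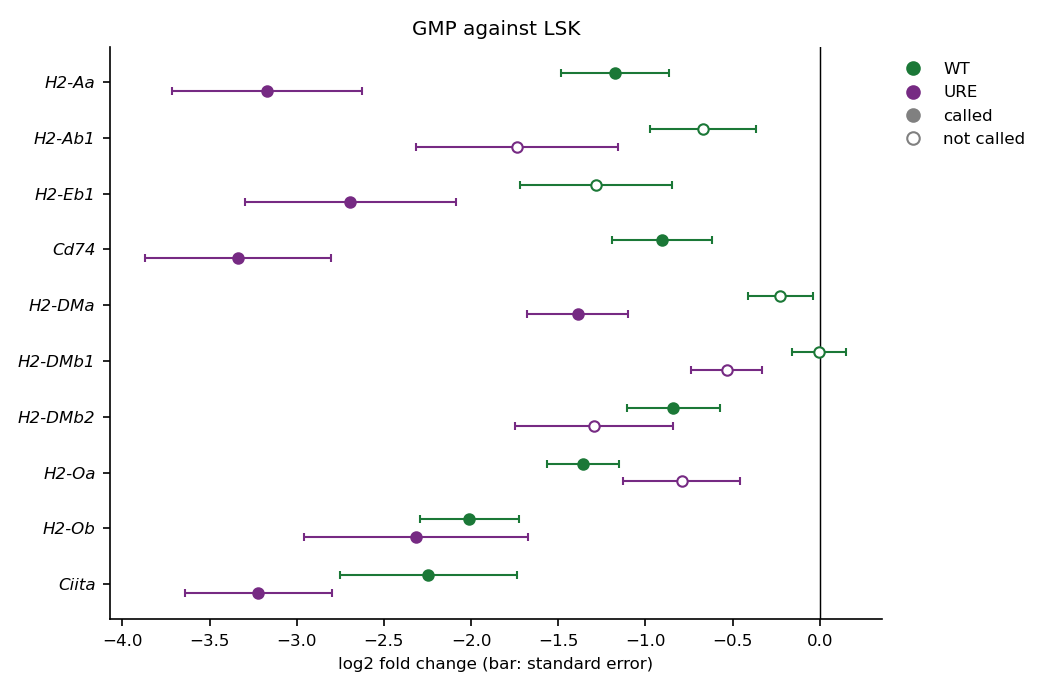
Log2 fold change of each member from LSKs to GMPs in WT and in UREΔ mice, with its standard error as a bar, from 4 libraries per group. Filled points were called: 6 in each genotype. *H2-DMb1* lies at 0 in WT, and *Cd74* lies at -0.91 in WT and -3.34 in UREΔ mice.

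Ratios of 2 members within a library do not depend on how libraries are scaled, and they are compared here between libraries only, since they are not per length. A mean of 2.90 ± 0.556 (SD, n = 4) counts of *H2-Ab1* were found per count of its partner *H2-Aa* in WT LSKs, 3.92 ± 1.18 in UREΔ LSKs, 4.35 ± 1.20 in WT GMPs and 10.7 ± 3.22 in UREΔ GMPs. In GMPs the UREΔ libraries (7.29 to 14.7) were all above the WT libraries (3.31 to 6.02), while in LSKs the genotypes overlapped. Counts of the invariant chain *Cd74* per count of *H2-Ab1* were 1.78 ± 0.421 in WT LSKs and 0.962 ± 0.252 in UREΔ LSKs, and 1.51 ± 0.262 in WT GMPs and 0.347 ± 0.217 in UREΔ GMPs. In both cell types every UREΔ library was below every WT library, and UREΔ GMP replicate 2, with 0.0607, was the lowest of all. *H2-DMb2* made up 12.1 ± 1.22% of the counts of both H2-DMb genes in WT LSKs and 3.995 ± 1.11% in UREΔ LSKs, and 7.13 ± 1.18% in WT GMPs and 2.37 ± 0.776% in UREΔ GMPs, also without overlap between the genotypes. Since these copies share sequence, the percentages depend on how the reads were assigned. With the counts of both copies summed, H2-DMb was called in neither cell type. The ratios were not tested.

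**Figure D4:**
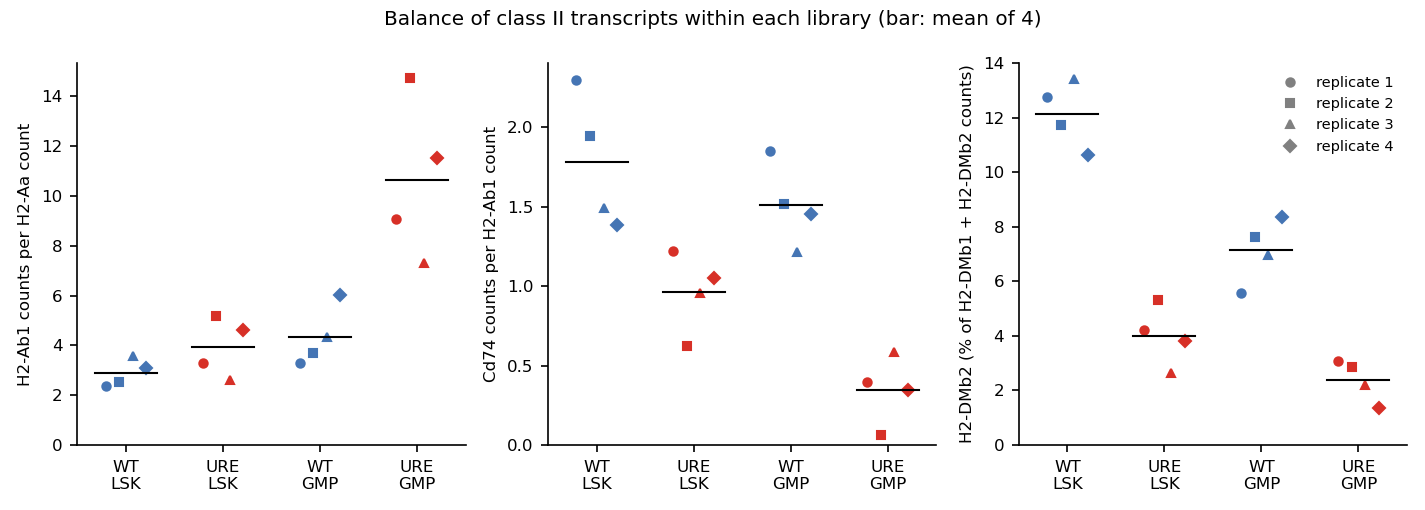
Balance of class II transcripts within each library: counts of *H2-Ab1* per count of *H2-Aa*, counts of *Cd74* per count of *H2-Ab1*, and *H2-DMb2* as a percentage of the counts of both H2-DMb genes. Symbols are mice and bars means of 4. UREΔ GMPs have the highest *H2-Ab1* to *H2-Aa* ratios (7.29 to 14.7) and the lowest *Cd74* to *H2-Ab1* ratios (0.0607 to 0.586).

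The genes around the pathway were described by lists. Of 7 transcription factors of the class II promoter (the RFX subunits, NF-Y subunits and *Creb1*), 0 were called in LSKs and 0 in GMPs by edgeR, with median log2 fold changes of -0.13 and 0.02, and 1 and 2 were at an unadjusted p under 0.05. Of all genes tested, 6.14% were called in either direction in LSKs and 8.3% in GMPs. In lists this small, few or no calls are thus close to the share of all genes. *Nfya*, an NF-Y subunit, was at 96.4 ± 26.1 CPM (SD, n = 4) in WT and 51.5 ± 14.9 CPM in UREΔ LSKs (log2 fold change -0.93, edgeR adjusted p = 0.104) and at 84.6 ± 24.1 and 46.8 ± 12.1 CPM in GMPs (-0.86, adjusted p = 0.0860). *Rfxank*, an RFX subunit, was at 15.01 ± 3.49 CPM in WT and 24.9 ± 4.49 CPM in UREΔ GMPs, without overlap (0.72, edgeR adjusted p = 0.0978). With the replicate block *Nfya* was called lower in LSKs (adjusted p = 0.00253) and GMPs (0.00721) and *Rfxank* higher in GMPs (0.0198), and DESeq2 called both in GMPs (0.0475 and 0.0391) and neither in LSKs. The block and DESeq2 were chosen for the lists only once their values were known. *Rfx5*, the RFX subunit that binds the X box, was named after its values had been seen, since replicates 1 and 4 were apart from replicates 2 and 3 in both genotypes. A part of its exons overlaps an antisense gene. It was at 65.1, 11.2, 14.2 and 63.1 CPM in WT LSKs and at 62.3, 11.4, 16.6 and 66.1 CPM in UREΔ LSKs. The neighbours of the class II genes within the same region (*Brd2*, *Psmb9*, *Tap1*, *Psmb8* and *Tap2*, which serve chromatin reading and the class I pathway) were not called in either cell type by edgeR, with or without the block, or by DESeq2, and 5 of the 6 in that list were tested by edgeR, with medians of 0.11 in LSKs and 0.20 in GMPs. At an unadjusted p under 0.05 there were 0 of these neighbours in either cell type by edgeR or DESeq2. With the block there were 1 in LSKs (*Psmb9*, log2 fold change -0.39, adjusted p = 0.138) and 3 in GMPs (*Tap1* at 0.62, adjusted p = 0.0582, *Psmb8* at -0.37, 0.108, and *Tap2* at 0.51, 0.147). Of the rest of the class II region, *H2-Ea* was at 0 and *H2-Eb2* at most 20 counts in any library. In GMPs *H2-Eb2* was higher in every UREΔ library (0.205 to 0.626 CPM, 4 to 13 counts) than in any WT library (0 to 0.173 CPM, at most 4 counts), the opposite order to the members called. It was too low for the edgeR test and was not called by DESeq2 (log2 fold change 2.78, adjusted p = 0.0823). *Irf8*, a partner of PU.1, fell in both cell types, with a log2 fold change of -3.19 in LSKs (SE 0.36, edgeR adjusted p = 0.000947) and -2.51 in GMPs (SE 0.64, adjusted p = 0.0428). *Irf4*, of the same list, was not called in LSKs by edgeR (-3.18, adjusted p = 0.105) and was by DESeq2 (-3.21, adjusted p = 0.0121).

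Of 6 genes that supply class II peptides, 2 were lower in LSKs, where 3.76% of all genes tested were, and 1 in GMPs, where 3.63% were. *Ctss*, the protease that trims the invariant chain, fell by 10.6-fold in LSKs (log2 fold change -3.40, SE 0.31, edgeR adjusted p = 0.000319) and by 6.99-fold in GMPs (-2.80, SE 0.50, adjusted p = 0.00849), and *Lgmn*, another endosomal protease, fell by 2.32-fold in LSKs (-1.22, SE 0.23, adjusted p = 0.0128). In GMPs *Lgmn* (-1.07, edgeR adjusted p = 0.0909) was called with the replicate block (0.0209) and by DESeq2 (0.0273), and *Ctsd*, a protease at 0.75 (edgeR adjusted p = 0.159), was called higher with the block (0.00849). The medians of this list were -0.09 in LSKs and -0.01 in GMPs. Among genes of interferon gamma signalling, the main inducer of *Ciita* outside antigen-presenting cells, *Ifngr2* fell in LSKs (-1.53, adjusted p = 0.0406) and in GMPs (-1.96, adjusted p = 0.0212), and *Ifngr1* rose in GMPs (1.25, adjusted p = 0.00206). The receptor chains thus moved in opposite directions in GMPs. Of 4 costimulatory genes, 3 were tested, and *Cd86* fell in LSKs by 13.1-fold (-3.71, SE 0.50, edgeR adjusted p = 0.00248) while none was called in GMPs, where the *Cd86* value was -0.90 (adjusted p = 0.345). *Icosl* in LSKs (-1.86, edgeR adjusted p = 0.0534) was called with the replicate block (0.0106) and by DESeq2 (0.00317), which also called *Cd40* there (0.00774). The 3 genes of class II turnover tested were not called by edgeR in either cell type, and DESeq2 called *Cd83* in LSKs (-1.16, adjusted p = 0.0287).

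Because the pathway is active in mature antigen-presenting cells, marker lists of those cells were read beside the members. Dendritic cell markers (12 in the table) summed to 613 to 1444 CPM in WT LSKs and 391 to 634 CPM in UREΔ LSKs, and to 209 to 382 and 116 to 147 CPM in GMPs. The sums consisted mostly of *Flt3* and *Tcf4*, which progenitors also express. *Flt3* fell in both cell types (log2 fold change -1.67, edgeR adjusted p = 0.0295 in LSKs and -2.78, adjusted p = 0.00451 in GMPs), as did *Clec10a* (-4.42, adjusted p = 0.00914 and -6.34, adjusted p = 0.00149), and *Clec9a* fell in GMPs (-3.81, adjusted p = 0.0132). In all, 2 of 7 dendritic markers tested were lower in LSKs, against 3.76% of all genes tested, and 3 of 6 in GMPs, against 3.63%. The other markers were not called lower. *Tcf4* and *Zbtb46* were not called in either cell type, and *Ccr9* was at 7.33 ± 5.99 CPM (SD, n = 4) in WT and 31.2 ± 23.7 CPM in UREΔ LSKs (log2 fold change 2.05, edgeR adjusted p = 0.218). In GMPs *Ccr9* was too low to be tested, at 0.0415 to 0.259 CPM in WT and 0.313 to 4.96 CPM in UREΔ libraries. Several defining markers of dendritic subsets were low throughout, with *Itgax* at most 3.27 CPM, *Cd209a* at most 1.33, *Xcr1* at most 1.29, *Siglech* at most 1.27 and *Batf3* at most 0.858 CPM in any library. Of these, *Batf3*, *Xcr1*, *Cd209a* and *Siglech* had every UREΔ GMP value below every WT GMP value, though all 4 were too low there to be tested by edgeR (means of 0.426, 0.660, 0.581 and 0.546 CPM in WT and 0.0128, 0.0911, 0 and 0.0256 CPM in UREΔ GMPs). The same held for *Batf3* (0.368 and 0.0346 CPM) and *Siglech* (0.535 and 0 CPM) in LSKs. In its single-cell data of Lin-c-Kit+ cells the study set dendritic cells aside, which it recognised by high *Cd74*, a member of this set. No such step was applied to the bulk libraries here. The part of these cells in the result was not tested.

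B cell markers (11 in the table) summed to 59.4 to 85.4 CPM in WT LSKs, 25.4 to 37.0 CPM in UREΔ LSKs, 64.0 to 91.6 CPM in WT GMPs and 12.3 to 27.8 CPM in UREΔ GMPs, and most of this was *Cd79b*, which fell in LSKs (log2 fold change -1.19, edgeR adjusted p = 0.00851) and GMPs (-2.31, adjusted p = 0.00349). Of the genes that define mature B cells, *Pax5* was at most 0.192 CPM and *Ms4a1* at most 0.156 CPM in any library, and of the early B-lineage genes *Ebf1* was at most 3.42, *Vpreb1* at most 2.97 and *Igll1* at most 2.40 CPM. *Vpreb1* was not called in GMPs, with 0.865 to 1.81 CPM in WT and 2.59 to 2.97 CPM in UREΔ libraries (log2 fold change 1.01, edgeR adjusted p = 0.0911). The part of these cells was not tested. Monocyte and macrophage markers (9 tested) were lower for 5 genes in LSKs and 6 in GMPs, against the same 3.76% and 3.63% of all genes tested, with medians of -2.29 and -2.86. Their sums were 93.8 to 116 CPM in WT LSKs, 11.1 to 24.7 CPM in UREΔ LSKs, 1530 to 1844 CPM in WT GMPs and 65.3 to 599 CPM in UREΔ GMPs. In WT mice the monocyte sum was thus higher in every GMP library than in any LSK library, while the summed class II level was lower, from 686 to 1179 CPM in WT LSKs to 449 to 649 CPM in WT GMPs. Within UREΔ GMPs, replicate 2, with the highest monocyte sum, was the highest library for 5 members (*Ciita*, *H2-Aa*, *H2-Ab1*, *H2-DMb1* and *H2-DMb2*) and the lowest for 2 (*Cd74* and *H2-Oa*). The part of monocytic cells in the difference between genotypes was not tested. Markers of late neutrophils (5 in the table) had higher sums in UREΔ mice in both cell types, with 21.8 to 104 CPM in WT and 156 to 261 CPM in UREΔ LSKs, and 35.5 to 77.9 CPM in WT and 165 to 717 CPM in UREΔ GMPs. Of these markers 1 was called higher in each cell type, against 2.38% of all genes tested in LSKs and 4.67% in GMPs. In GMPs 1 was called lower, against 3.63% of all genes tested. T and NK cell markers summed to 121 to 295 and 216 to 356 CPM in WT and UREΔ LSKs and to 563 to 976 and 1353 to 2226 CPM in GMPs, mostly through *Nkg7*, while *Cd3e* was at most 0.032 CPM. The summed erythroid markers overlapped between the genotypes in both cell types. In LSKs 1 of 6, *Hbb-bt*, was called lower, against 3.76% of all genes tested (0.530 to 3.75 CPM in UREΔ and 11.4 to 79.9 CPM in WT libraries, log2 fold change -4.54, edgeR adjusted p = 0.00638). The part of these lists in the results was not tested. The plot of summed levels gives these lists beside the members.

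Finally, genes were ranked by how closely their pattern over the 16 libraries followed the mean profile of *H2-Aa*, *H2-Ab1*, *H2-Eb1* and *Cd74*, by the root mean square difference of centred log2 CPM, among 9065 genes whose mean reached 3 log2 CPM. The closest 5 outside the members were *Abcb1b* (0.610), *Cd27* (0.640), *Calhm6* (0.666), *Krt18* (0.669) and *BC147527* (0.690). *Abcb1b*, a drug efflux transporter, was at 45.6 ± 5.20 CPM (SD, n = 4) in WT LSKs, 25.8 ± 3.65 CPM in UREΔ LSKs, 34.4 ± 6.82 CPM in WT GMPs and 5.06 ± 0.671 CPM in UREΔ GMPs. *Cd27*, a costimulatory receptor of progenitors and lymphocytes, was at 268 ± 35.1, 136 ± 24.6, 134 ± 20.7 and 31.8 ± 14.1 CPM in the same order. Among the members, the difference from this profile was 0.615 for *H2-Ob*, 0.720 for *H2-DMb2*, 1.07 for *H2-DMa*, 1.35 for *H2-Oa*, 1.42 for *H2-DMb1* and 1.58 for *Ciita*. Several genes outside the pathway thus lay closer to this mean profile than *H2-DMa*, *H2-DMb1*, *H2-Oa* or *Ciita* did. When a mean of 1 log2 CPM was enough, 2 of the 5 closest genes were shared. The points share libraries and depth, and the ranking is a description.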

How the data were processed

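Bulk RNA-seq of sorted LSKs and GMPs was analysed. From up to 10 ng of RNA per sample, unstranded low-input libraries without molecular identifiers were made, so statements on depth cover counting error only. The authors quantified reads with Salmon (GRCm38, submitters' processing notes), aggregated them per gene with tximport and deposited estimated counts, not normalized, as whole numbers for 54347 genes. Their annotation release is not given in the sources used here. GENCODE M21 holds 54094 of the identifiers, and its exons gave lengths and coordinates.

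Each pair of groups was fitted over the whole table with edgeR 4.0.16 (limma 3.58.1, R 4.3.3), TMM, filterByExpr and the quasi-likelihood test, with Benjamini-Hochberg adjustment over all genes tested. Calls needed an adjusted p below 0.05 with more than a 1.5-fold change (no fold for the interaction over all 16 libraries). CPM use TMM library sizes, and log2 CPM a prior count of 2. Exact two-sided permutation tests of single members cannot go below p = 0.0286 with 4 against 4 libraries, the value of every member without overlap. The procedure was tested on simulated data. DESeq2 1.42.0, other size factors and filters, the replicate block, thinned counts, summed H2-DMb copies, a Y-linked covariate, replicate sets, a joint fit and leaving out each library were alternatives. Plots used matplotlib 3.10.9.

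Replicate numbers come from the labels. Deviations of same-numbered libraries correlated in every pair (r from 0.33 to 0.88). From the data and not the design, the number was therefore used as a block in an alternative fit. The main fits, with their counts of calls and plots of fold changes, have no block and leave this pairing out. No libraries were near-identical (chi-square per degree of freedom at least 32.4).

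The members and gene lists were chosen with earlier results of these data known. Named genes were the 10 members, *Spi1*, list members called between genotypes, markers that moved with a result, and the 5 genes closest to the class II profile. The results of some listed genes are not reported here.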

Additional observations from a re-analysis of the deposited data

Results flagged for a closer look

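Within groups of 4 libraries, each member, the sum of the members and *Spi1* were searched for a library far from the others by Dixon's criterion. Of 48 searches 3 found one, where chance gives about 5%. *Cd74* in UREΔ GMP replicate 3 was at 12.7 CPM, with the others between 2.66 and 4.27 CPM. *Cd74* in WT GMP replicate 2 was at 163 CPM, with the others between 115 and 119 CPM. *H2-DMb2* in UREΔ LSK replicate 2 was at 5.70 CPM, with the others between 2.40 and 2.92 CPM.

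The effect of the genotype on *Spi1* differed between the cell types, with an interaction term of 2.64 on the log2 scale, while the terms of 9 of the 10 class II genes had the opposite sign. None of these was called by edgeR without a block, where 1.22% of all genes were. DESeq2 called 2, for which the share of all genes is not given. With the replicate block 3 were called, where 6.57% of all genes were.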

How the results depend on the processing

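Of 1104 values of members under an alternative, 1077 kept their direction and 974 also their side of the thresholds, while 65 lost a call, 38 gained one and 27 changed sign. Counts of members called moved by over 1.5 times as follows. In LSKs between genotypes 3 became 5 with the replicate block, 0 with the Y-linked covariate and 5 within replicates 1 and 4, with 1 to 4 when 1 library was left out. In GMPs 6 became 2 within replicates 2 and 3, with 4 to 6 when 1 library was left out. Between compartments in WT, 6 became 3 in the joint fit, with 3 to 6 when 1 library was left out, and in UREΔ mice the range was 5 to 7. For the interaction, 0 became 2 with DESeq2, 3 with the replicate block and 1 within replicates 1 and 4, with 0 to 1 when 1 library was left out. No share of all genes is given for DESeq2, the joint fit, single libraries left out or the interaction within replicates 1 and 4. Those counts can therefore not be set against the calls over all genes. The other shares stand beside the results. The block changed no call of a member or of the pathway lists other than those given beside the results, and the cause of these shifts was not tested.

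The sign of a log2 fold change turned in these cases. Between genotypes in LSKs, *H2-DMb1* was at 0.0129 with RLE factors, 0.0148 with DESeq2, 0.0863 within replicates 2 and 3 and 0.0164 in the joint fit, and *H2-DMa* at 0.0895 within replicates 2 and 3. In GMPs *Ciita* was at 0.52 within replicates 2 and 3. Between compartments in WT, *H2-DMb1* was at 0.0686 with RLE factors, 0.0786 with DESeq2, 0.0207 without a filter, 0.000314 with the Y-linked covariate, 0.0150 within replicates 1 and 4, 0.0748 within replicates 2 and 3 and 0.00918 in the joint fit. The interaction within replicates 2 and 3 was 0.0876 for *H2-Ob* and 0.35 for *Ciita*. With 1 library left out the ranges were -0.24 to 0.0271 (*H2-DMa*) and -0.11 to 0.0856 (*H2-DMb1*) in LSKs, -0.20 to 0.27 (*H2-Oa*) in GMPs, -0.0365 to 0.13 (*H2-DMb1*) between WT compartments and -1.06 to 0.14 (*H2-Ob*) for the interaction. *Ciita* in GMPs rested on 13 to 73 counts, and the parts of depth and of the spread between mice were not told apart.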
